A study of Mus musculus with 9 samples.

Results

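The genes described here are 38 genes of glycolysis and of the response to low oxygen, chosen by name among the 24138 loci of the deposited expression table. Each of the 38 names was found at 1 locus. They comprise 17 glycolytic enzymes, 7 genes of glucose and lactate transport and of the control of glycolysis, 5 genes for hypoxia-inducible factor subunits and their prolyl hydroxylases, and 9 other hypoxia-responsive genes. RNA was measured in whole mouse kidneys at E15.5 (E for embryonic day), in 9 libraries of 3 genotypes with 3 kidneys each, taken from 3 crosses on a C57Bl6/J background. *Foxd1GC/+;Ntn1fl/fl* kidneys (homozygous, MUT) carry a GFP-Cre knock-in at *Foxd1* and 2 floxed alleles of *Ntn1*, the gene of the secreted ligand netrin 1. *Foxd1GC/+;Ntn1fl/+* kidneys (heterozygous, HET) carry the same knock-in, 1 floxed and 1 wild-type allele, and *Ntn1fl/fl* kidneys (wild type, WT) carry 2 floxed alleles and no Cre. Every kidney of the 3 genotypes therefore has at least 1 floxed allele. The Cre is driven from the *Foxd1* locus, which is active in stromal progenitors, so it acts in the stroma and its descendants while the RNA comes from the whole organ, and the insertion itself takes 1 *Foxd1* allele from every HET and MUT kidney. Values are FPKM, fragments per kilobase of transcript scaled to library size, so levels are already per length.

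Glycolysis breaks glucose down to pyruvate. Glucose enters through transporters such as Glut1 (*Slc2a1*), is trapped by hexokinase, is committed at phosphofructokinase, is split by aldolase and is passed down to pyruvate kinase, and lactate dehydrogenase turns pyruvate into lactate, which leaves through monocarboxylate transporters. Many of these genes are targets of the hypoxia-inducible factors (HIF). The alpha subunits Hif1a and Epas1 (Hif2a) are marked for destruction by the prolyl hydroxylases Egln1 and Egln3 when oxygen is present. When oxygen is low they persist, pair with Arnt and bind DNA at a short core motif in target genes. In the embryonic kidney, nephron progenitors are known for their high rate of glycolysis, and the organ develops in a poorly oxygenated setting while its vessels form. Control of HIF is largely at the protein level, which RNA does not show.

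Promoters of 5 genes are shown for the core motif through which HIF is known to act. *P4ha2*, *Slc2a1* and *Egln1* are those with a promoter sequence among the 4 genes whose MUT and HET libraries did not overlap (below), and *Ldha* and *Bnip3* hold the most matches in the window among the enzyme and the hypoxia genes. The sequences are those of RefSeq on GRCm38.p6, 250 bases upstream of the start site, 5′ to 3′ in the direction of the gene. They lie at chr11:54100674-54100923, plus strand (*P4ha2*), chr4:119108495-119108744, plus strand (*Slc2a1*), chr8:124949255-124949504, minus strand (*Egln1*), chr7:46845554-46845803, plus strand (*Ldha*) and chr7:138909507-138909756, minus strand (*Bnip3*). Capitals mark ACGTG or GCGTG on either strand, so that a match on the other strand reads CACGT or CACGC, and a run of CACGTG holds 2 overlapping matches.
P4ha2: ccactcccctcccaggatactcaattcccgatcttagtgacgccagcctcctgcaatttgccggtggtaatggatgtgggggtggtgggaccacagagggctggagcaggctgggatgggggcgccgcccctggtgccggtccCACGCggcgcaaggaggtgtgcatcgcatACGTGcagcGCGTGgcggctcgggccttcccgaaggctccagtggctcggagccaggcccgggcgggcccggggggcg
Slc2a1: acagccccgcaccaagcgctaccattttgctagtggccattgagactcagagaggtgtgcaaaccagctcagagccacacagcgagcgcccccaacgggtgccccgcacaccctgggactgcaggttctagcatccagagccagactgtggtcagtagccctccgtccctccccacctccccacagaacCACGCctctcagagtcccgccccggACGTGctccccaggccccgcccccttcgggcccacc
Egln1: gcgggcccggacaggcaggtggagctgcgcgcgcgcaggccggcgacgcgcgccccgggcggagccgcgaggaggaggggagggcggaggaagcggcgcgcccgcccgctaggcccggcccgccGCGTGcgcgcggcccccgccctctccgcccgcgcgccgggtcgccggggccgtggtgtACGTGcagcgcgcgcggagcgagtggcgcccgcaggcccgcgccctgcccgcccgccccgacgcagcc
Ldha: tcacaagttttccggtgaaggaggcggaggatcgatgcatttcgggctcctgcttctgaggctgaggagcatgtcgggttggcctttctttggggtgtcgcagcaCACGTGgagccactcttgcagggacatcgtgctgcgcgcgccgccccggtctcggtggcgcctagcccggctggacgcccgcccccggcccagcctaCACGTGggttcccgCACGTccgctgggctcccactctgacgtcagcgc
Bnip3: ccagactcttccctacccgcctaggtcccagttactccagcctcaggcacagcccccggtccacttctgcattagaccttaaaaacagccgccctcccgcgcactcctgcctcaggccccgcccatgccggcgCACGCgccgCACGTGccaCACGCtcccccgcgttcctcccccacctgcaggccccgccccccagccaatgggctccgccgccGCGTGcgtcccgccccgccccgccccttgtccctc
*P4ha2* held 3 matches, *Slc2a1* and *Egln1* 2 each, and *Ldha* and *Bnip3* 5 each. Of the 34 genes of the group with a window, 27 (79.4%) held at least 1 match, 17 of 23 (73.9%) among the genes of enzymes, transport and control and 10 of 11 (90.9%) among the hypoxia genes. A match was present in 38.6% of the 27025 windows of all genes and in 59.7% of the 7523 windows of genes expressed at 5 FPKM or more on average, so the share was higher among expressed genes generally. *Hk1*, *Gpi1*, *Aldoa*, *Tpi1*, *Eno2*, *Pkm* and *Vldlr* held none of these letters in this window. *Slc2a3*, *Epas1*, *Bnip3l* and *Ndrg1* had no entry. The matches describe the sequence only.

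The genotypes were checked first. *Ntn1* measured 26.1, 28.9 and 17.9 FPKM in WT libraries 1 to 3, 12.3, 12.02 and 16.5 in the HET libraries and 10.8, 16.5 and 11.04 in the MUT libraries, lower in every library with the Cre than in every WT library, whereas HET and MUT overlapped. *Foxd1*, which the insertion disrupts on 1 allele, lay below every WT library in both HET (21.1±0.801, mean±s.d., n=3) and MUT (23.9±1.22) against 30.96±4.46 in WT. For *Foxd1*, every MUT library (24.8, 22.5 and 24.3 FPKM) lay above every HET library (21.7, 20.2 and 21.5), as 5.19% of all loci did. Read depth is unknown for FPKM, and the spacing of the lowest values puts depth, relative to WT-1, between 0.57 in WT-2 and 1.27 in MUT-1. 2 libraries stood apart in markers of tissues around the kidney. In HET-2 the summed FPKM of 8 liver genes was 716 against 28.6 to 53.8 in the other libraries, with albumin (*Alb*) at 243.8 FPKM against at most 4.77, the sum of erythroid genes was 4098 against 2258 to 2750, and that of 7 adrenal genes was 11.2 against at most 1.38. In HET-3 the sum of 6 skeletal muscle genes was 58.4 against 6.23 to 10.7. Kidney markers were present in every library, with summed levels of 486 to 579 for 6 stromal genes, 177 to 283 for 5 nephron progenitor genes and 104 to 212 for 7 proximal tubule genes. The part of these differences in the results below was not tested. Only some of the results in which HET-2 holds an extreme value are also given without it. In whole kidneys, fewer cells of a type and less RNA per cell cannot be told apart.

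All 38 genes were detected in all 9 libraries, over levels from 1.55 FPKM (*Aldoc*, mean of 9 libraries) to 892 FPKM (*Gapdh*). The highest levels of the group were all of enzymes at or after the aldolase step, although *Aldoc* and *Eno2* (3.16 FPKM) were among the lowest. After *Gapdh*, which makes the first high-energy phosphate of the pathway, came *Pkm* (pyruvate kinase) at 442, *Eno1* (enolase) at 437 and *Ldha* (lactate dehydrogenase A) at 434 FPKM, means that lay within 1 s.d. of each other. *Aldoa* (325), *Tpi1* (293) and *Ldhb* (251) followed. *Pgk1* (133 FPKM) and *Gpi1* (128) came next, then *Pgam1* (66.2). The hexokinase and phosphofructokinase steps were lower, with 21.9 FPKM for *Hk1* and 49.3 FPKM for *Pfkl*. Among the hypoxia genes *Bnip3l* was highest (65.3 FPKM), and *Adm* (2.38 FPKM) was lowest. The coefficient of variation over the 9 libraries ran from 6.54% for *Egln1* to 23.1% for *Eno1*, and *Aldoa* (20.01%) was the only other gene at or above 20%. The abundant enzymes have processed pseudogenes with near-identical sequence, and how reads shared with them were assigned is not given in the sources used here, so the levels of *Gapdh*, *Pkm*, *Eno1*, *Ldha*, *Aldoa*, *Tpi1*, *Pgk1* and *Pgam1* are uncertain to that extent. The loci of *Pfkm*, *Pfkp*, *Aldoa*, *Tpi1* and *Ankrd37* overlap another gene on the opposite strand, that of *Hif1a* overlaps a predicted gene on the same strand, and *Pdk1* shares 1 set of coordinates with 8 other rows that have values of their own. The libraries were stranded, but whether the counting used the strand is not given in the sources used here.

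**Figure D1:**
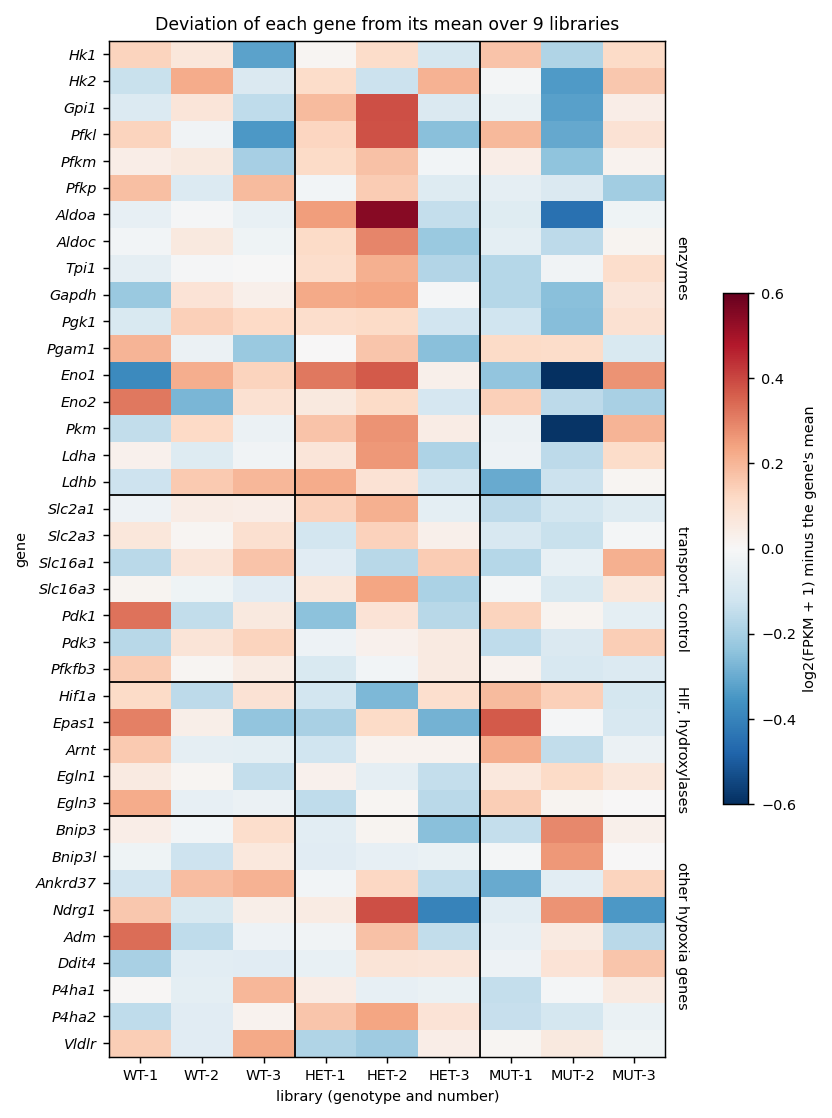
Deviation of log2(FPKM + 1) of each of the 38 genes (rows, by role) from its own mean over the 9 libraries (columns, by genotype), red above and blue below the mean. *Eno1*, *Pkm* and *Aldoa* are darkest blue in MUT-2, *Aldoa* is darkest red in HET-2, and *Ndrg1* runs from blue in HET-3 to red in HET-2.

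MUT and HET kidneys were compared to ask what loss of the second *Ntn1* allele in the stroma does when both genotypes lack 1 *Foxd1* allele. None of the 33 genes of the group with at least 5 FPKM in either genotype had an adjusted p under 0.05 (limma on log2(FPKM + 1), Benjamini-Hochberg over 10081 loci, of which 0% passed, with 0.738 the lowest adjusted p of any locus). At an unadjusted limma p under 0.05, *P4ha2* was the 1 gene of the group past the threshold, on the lower side, where 2.63% of all loci lay on that side and 3.68% on the higher side. It did not pass with the replicate number as a block, at a minimum of 10 FPKM, or without MUT-1, MUT-2, HET-1 or HET-2, where 0 genes of the group did. Other settings let more genes of the group past this threshold, and more loci in most of them. There were 3 with GC correction (740 of 9739 loci) and 5 with correction for GC content and length (846 of 9739). Without MUT-3 there were 4 (1837 of 10159 loci), and without HET-3 also 4 (1126 of 10096). With no FPKM minimum (961 of 19222 loci) and in a single fit of all 9 libraries (400 of 10081) there were 2 each. In 2 genes every MUT library lay above every HET library (*Egln1* and *Bnip3l*), and in 2 every MUT library lay below (*Slc2a1* and *P4ha2*), where 5.19% and 4.5% of all loci did so. 2 of 33 genes is close to each of these shares. *Pfkp*, *Aldoc*, *Eno2*, *Slc2a3* and *Adm* were under 5 FPKM in both genotypes and were not tested. The 95% confidence intervals of the 33 genes reached between 0.22 and 0.49 to each side on the log2 scale, with a median of 0.29. A difference smaller than that was not detectable with 3 kidneys. These intervals are per gene and not adjusted for the number of loci, so the adjusted test can also miss larger differences. The interval of *P4ha2* left out 0, yet its adjusted p was 0.738 (limma).

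Among the members tested, glycolytic enzymes had the widest differences between MUT and HET. Of the 14 enzymes tested, 12 had a lower mean in MUT than in HET and 2 a higher one, with a median log2 difference of -0.14 against -0.02 over all loci. None passed the test. Over all loci, 54.06% had the lower mean in MUT, the share to set beside each count of direction between MUT and HET below. *Eno1*, which makes phosphoenolpyruvate, measured 326, 495 and 467 FPKM in WT, 529, 550.1 and 434 in HET and 361, 258 and 514 in MUT (libraries 1 to 3 of each). MUT-2 was the lowest of the 9 libraries and MUT-3 the third highest, so that the 3 MUT kidneys spanned most of the range of all 9. The log2 difference between MUT and HET was -0.46 (standard error 0.22, 95% interval -0.95 to 0.02, adjusted p = 0.738, limma). *Aldoa*, the aldolase that splits the phosphorylated sugar, measured 309, 318 and 309.6 FPKM in WT, 380.2, 467 and 289 in HET and 304, 234 and 314 in MUT (libraries 1 to 3 of each). Its WT libraries had an s.d. of 5.002 FPKM, HET-2 was the highest of all and MUT-2 the lowest, and the log2 difference was -0.40 (standard error 0.19, interval -0.81 to 0.02, adjusted p = 0.738, limma). *Pkm*, which makes pyruvate and ATP, measured 393, 473 and 425 FPKM in WT, 491, 525 and 449 in HET and 426, 289.6 and 503 in MUT, with MUT-2 again far below the rest and MUT-3 inside the range of HET. Its log2 difference was -0.30±0.19 (standard error).

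*Gapdh* measured 758, 938 and 904 FPKM in WT, 1037, 1043 and 883 in HET and 787, 745 and 932 in MUT, a log2 difference of -0.27±0.15 (standard error), with MUT-3 above HET-3. *Gpi1*, the isomerase after hexokinase, ran from 101 FPKM in MUT-2 to 166 in HET-2, a log2 difference of -0.27±0.15. *Ldhb*, the lactate dehydrogenase subunit that favours use of lactate, differed by -0.21±0.14, and its lowest library was MUT-1, not MUT-2. The remaining enzymes lay closer to 0. *Pfkm*, *Pgk1* (phosphoglycerate kinase, which makes ATP) and *Hk2* differed by -0.15, -0.13 and -0.13 on the log2 scale, and *Pfkl*, *Tpi1* and *Ldha* by -0.09, -0.08 and -0.08, each with an interval that includes 0. *Hk1* (0.03) and *Pgam1* (0.07), which moves the phosphate of phosphoglycerate, had the higher mean in MUT. Of the enzymes below 5 FPKM, *Pfkp* ran from 4.04 to 5.63 FPKM over the 9 libraries, *Eno2* from 2.41 to 4.14 and *Aldoc* from 1.17 to 2.102, with MUT and HET overlapping in each.

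HET-2 held the highest value of the 9 libraries for 9 of the 14 enzymes and MUT-2 the lowest for 8, while over all loci with at least 5 FPKM these libraries were highest and lowest for 14% and 18.6%. HET-2 is also the library with liver and blood transcripts. MUT-2 had no such excess, with liver markers at 53.8 and erythroid markers at 2750, beside sums of up to 52.4 and 2652 in WT. Without HET-2, 9 of the 14 enzymes had the lower mean in MUT and the median log2 difference was -0.14. Without MUT-2, 10 of 14 did and the median was -0.07. With HET-2 and MUT-2 both left out, 9 of 14 did, the median was -0.02 against -0.03 over all loci, and *Eno1*, *Aldoa* and *Pkm* differed by -0.15, -0.10 and -0.02. This pair was chosen once the data had been seen and holds most of the extreme values, so a smaller difference without it follows from the choice. Without HET-3, the library with muscle transcripts, 15 of 15 did, with a median of -0.21, and without MUT-3 13 of 14 did, with a median of -0.23. The summed FPKM of the 17 enzymes shows the same spread. It was 3174, 3656 and 3516 in WT, 3969, 4220 and 3320 in HET, and 3198, 2803 and 3741 in MUT, or 3449±248, 3836±464 and 3248±471 (mean±s.d., n=3 each). Exact two-sided permutation tests gave p = 0.2 for MUT against HET, 0.7 for MUT against WT and 0.3 for HET against WT, where 0.1 is the smallest p that 3 libraries against 3 can give. The FPKM of all loci also differed between libraries, from 453753 in WT-1 to 545598 in WT-2. As a percent of it, the enzymes made up 0.690±0.018 in WT, 0.742±0.065 in HET and 0.650±0.082 in MUT. MUT-2 was lowest at 0.555%, and MUT-1 (0.6995%) and MUT-3 (0.695%) lay inside the range of WT. For these shares the exact two-sided permutation p was 0.3, 0.6 and 0.3 in the same order.

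**Figure D2:**
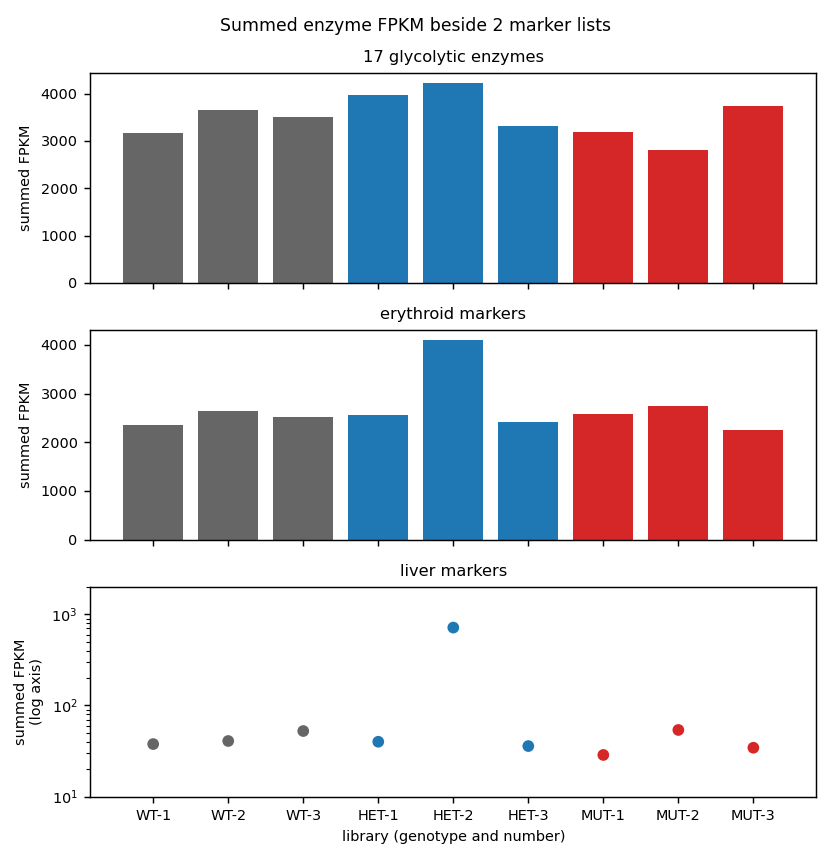
Summed FPKM of the 17 glycolytic enzymes (top), of the erythroid markers (middle) and of 8 liver markers (bottom, log axis) in each of the 9 libraries, with WT in grey, HET in blue and MUT in red. HET-2 is highest in all 3 panels (4220, 4098 and 716), MUT-2 has the lowest enzyme sum (2803), and MUT-3 lies above HET-3 in the top panel.

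Against WT, the median difference of the enzymes was nearer to 0 in both genotypes than between MUT and HET. Single enzymes such as *Hk1*, *Pgk1* and *Ldhb* lay slightly farther from 0 in MUT against WT. In MUT against WT, 12 of 15 enzymes tested had the lower mean in MUT, with a median log2 difference of -0.06 (-0.0035 over all loci), and the largest differences were in *Ldhb* (-0.22±0.16, standard error), *Eno1* (-0.22±0.26) and *Pfkp* (-0.21±0.15). Without MUT-2 the direction turned, with 6 of 15 lower in MUT, a median of 0.03 and *Eno1* at 0.03. In HET against WT, 11 of 15 had the higher mean in HET, with a median of 0.07 (0.01 over all loci), led by *Aldoa* (0.25±0.17), *Eno1* (0.25±0.17) and *Gpi1* (0.22±0.14). Without HET-2, 8 of 15 were higher in HET, the median was 0.02, and *Aldoa* and *Gpi1* differed by 0.09 and 0.11. *Eno1* differed by 0.06 without WT-1. Over all loci, 51.35% had the lower mean in MUT than in WT, and 47.6% the lower mean in HET than in WT. These shares stand beside the counts of direction against WT here and below. None of these enzymes passed the test, and no enzyme had groups that did not overlap in any of the 3 comparisons. The 3 comparisons share libraries, so the negative values against HET and the positive values of HET against WT are not separate evidence.

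Isoenzymes were compared as shares within a library, which do not depend on how the library was scaled. Of the lactate dehydrogenase FPKM, *Ldhb* made up 38.2%±3.54 in WT, 36.9%±2.74 in HET and 34.8%±2.37 in MUT (mean±s.d., n=3), with single libraries from 32.3% in MUT-1 to 40.4% in WT-2. *Ldha* was thus the main subunit in every library. *Hk2*, the inducible hexokinase, made up 24.1%±3.56, 24.4%±3.88 and 22.1%±1.86 of *Hk1* and *Hk2* together. *Pfkl*, the liver-type phosphofructokinase, made up 62.8%±2.41, 64.0%±3.46 and 64.99%±2.18 of the 3 phosphofructokinase genes. These shares overlapped between all genotypes. The neuronal-type isoenzymes *Aldoc* and *Eno2* stayed near or below 1% of their families, from 0.405% to 0.541% for *Aldoc* and from 0.485% to 1.25% for *Eno2*. The *Aldoc* share was 0.486, 0.514 and 0.478% in WT, 0.457, 0.449 and 0.405% in HET and 0.469, 0.541 and 0.495% in MUT, so that every HET library lay below every WT and MUT library. For each of these, the exact two-sided permutation p was 0.1, the smallest possible, and 0.817 after Benjamini-Hochberg adjustment over 21 tests of 7 shares and 3 pairs of genotypes. None of the 21 tests had an adjusted p below 0.817. *Slc2a3* made up 8.55% to 11% of the glucose transporters *Slc2a1* and *Slc2a3*, and *Slc16a3* made up 23.1% to 34.3% of the monocarboxylate transporters *Slc16a1* and *Slc16a3*.

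**Figure D3:**
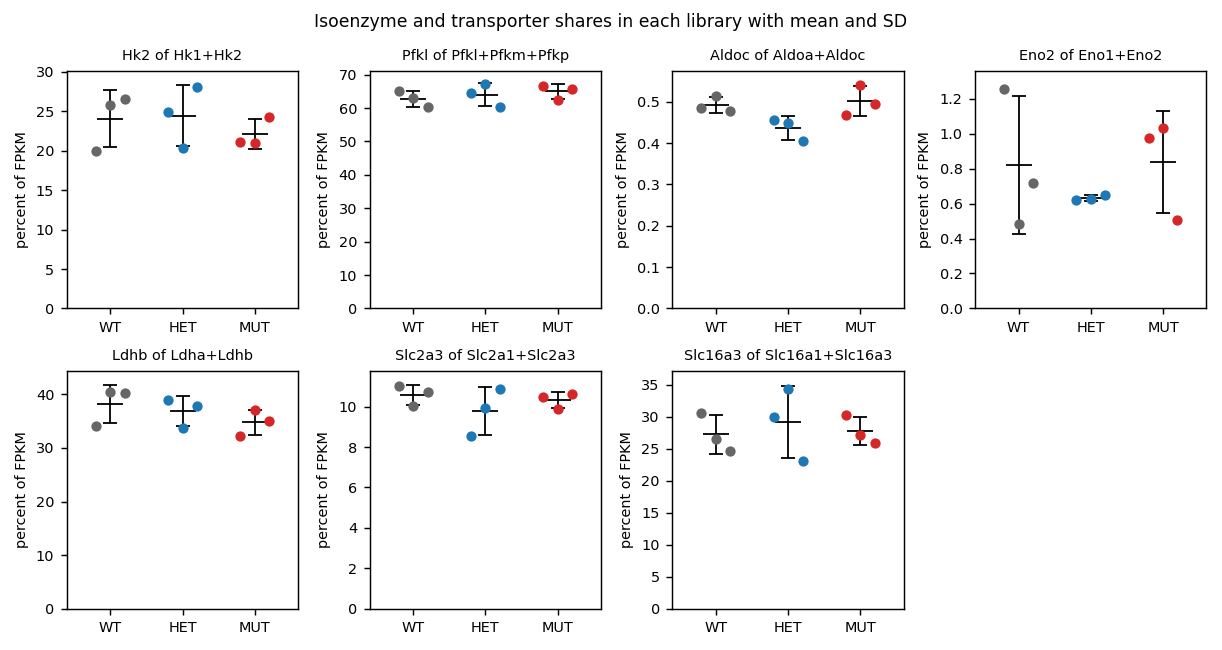
Share of each family's FPKM held by 1 isoform (percent, y axis from 0) in every library of WT (grey), HET (blue) and MUT (red), with the mean and s.d. of 3 libraries in black. The *Aldoc* share is 0.405 to 0.457% in HET, below all WT and MUT libraries, and the genotypes overlap in the other 6 panels.

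*Slc2a1* (mm10 chromosome 4, 119108745 to 119137329), the Glut1 transporter that brings glucose into most cells of the embryo, measured 32.7, 34.5 and 34.4 FPKM in WT, 36.8, 38.9 and 32.04 in HET and 29.9, 30.8 and 31.6 in MUT (libraries 1 to 3 of each). All 3 MUT libraries lay below all 3 HET and all 3 WT libraries, and MUT-3 and HET-3 were the closest. The log2 difference was -0.21 from HET (standard error 0.11, interval -0.45 to 0.03, adjusted p = 0.738, limma) and -0.14 from WT (standard error 0.11, adjusted p = 0.9998, limma), and the exact two-sided permutation p was 0.1 for each. Against WT, 1.34% of all loci lay below in this way and 1.32% above. Without HET-2 the difference from HET was -0.16. *Slc2a3*, the high-affinity transporter Glut3, stayed under 5 FPKM and was not tested by limma. It measured 4.04, 3.84 and 4.13 FPKM in WT, 3.45, 4.28 and 3.91 in HET and 3.49, 3.38 and 3.76 in MUT, and its MUT libraries lay below its WT libraries but overlapped HET.

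Lactate leaves cells through *Slc16a1* (Mct1) and *Slc16a3* (Mct4). *Slc16a1* ran from 26.1 to 34.3 FPKM, with 30.2±3.62 in WT, 29.1±3.47 in HET and 29.7±4.19 in MUT, and *Slc16a3* measured 11.2±0.358, 11.9±1.89 and 11.3±0.677. Neither differed between MUT and HET by more than its standard error. The pyruvate dehydrogenase kinases *Pdk1* and *Pdk3*, which inhibit the oxidation of pyruvate in mitochondria, differed by 0.14±0.11 and -0.05±0.11 (log2 difference of MUT from HET and standard error). *Pfkfb3*, which makes the activator of phosphofructokinase, was 5.85±0.348 FPKM in WT, 5.43±0.317 in HET and 5.28±0.282 in MUT. Of the 6 genes of transport and control tested, 4 had the lower mean in MUT than in HET, with a median log2 difference of -0.04. The median was -0.05 in MUT against WT and -0.02 in HET against WT, and none of the 6 passed the test in any comparison.

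The factors and hydroxylases of the oxygen sensor all had a higher mean in MUT than in HET, by small amounts that none of the 5 genes' tests set apart from 0. The median log2 difference of the 5 was 0.16 (-0.02 over all loci). It was 0.05 in MUT against WT, where 4 of 5 had the higher mean, and there it turned to -0.04 without MUT-1, -0.03 without WT-2 and -0.03 without WT-3, with 2 of 5 higher each time. In HET against WT it was -0.11, where 5 of 5 had the lower mean, and -0.02 without WT-1, where 3 of 5 did. *Hif1a*, the alpha subunit found in most cells, measured 49.6, 40.8 and 48.6 FPKM in WT, 42.3, 37.8 and 49.02 in HET and 52.2, 50.6 and 42.4 in MUT (libraries 1 to 3 of each). HET-2 was its lowest library and MUT-1 its highest, MUT-3 lay inside the range of HET, and the log2 difference was 0.17±0.13 (standard error). *Epas1*, the alpha subunit known from endothelium and interstitial cells, ran from 8.15 to 13.3 FPKM, with a log2 difference of 0.21±0.15. *Arnt*, their shared partner, differed by 0.04±0.12.

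*Egln1* (mm10 chromosome 8, 124908587 to 124949254), the main prolyl hydroxylase that marks Hif1a for destruction, measured 34.0, 32.99 and 29.5 FPKM in WT, 33.3, 31.4 and 29.5 in HET and 34.2, 35.5 and 34.3 in MUT (libraries 1 to 3 of each). The MUT libraries lay above all HET and all WT libraries and close to each other, and WT-1 almost reached them. The log2 difference was 0.14 from HET (standard error 0.10, interval -0.08 to 0.36, adjusted p = 0.759, limma) and 0.11 from WT (standard error 0.12), with an exact two-sided permutation p of 0.1 for each. *Egln3*, the hydroxylase that HIF itself is known to induce, measured 15.3, 12.5 and 12.6 FPKM in WT, 11.6, 13.1 and 11.5 in HET and 14.4, 13.1 and 12.97 in MUT, a log2 difference of 0.16±0.10, with MUT inside the range of WT.

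Of the 9 other hypoxia-responsive genes, 8 were tested between MUT and HET, of which 4 had the higher and 4 the lower mean in MUT, with a median log2 difference of 0.01 (6 higher and a median of 0.07 without HET-2). *P4ha2* (mm10 chromosome 11, 54100924 to 54131667) encodes a subunit of the collagen prolyl 4-hydroxylase, which hydroxylates proline in collagen. It measured 8.22, 8.76 and 9.39 FPKM in WT, 10.5, 11.1 and 9.82 in HET and 8.31, 8.51 and 8.94 in MUT (libraries 1 to 3 of each). The HET libraries lay above all WT and all MUT libraries, and MUT and WT overlapped. The log2 difference was -0.26 for MUT from HET (standard error 0.10, interval -0.49 to -0.02, adjusted p = 0.738, limma) and 0.23 for HET from WT (standard error 0.11, adjusted p = 0.998, limma), while MUT differed from WT by -0.03±0.12. Without HET-2 the difference of MUT from HET was -0.22, and the lowest HET library, HET-3 at 9.82 FPKM, still lay above the highest WT library. *P4ha1*, the other catalytic subunit, differed by -0.02±0.10 between MUT and HET and ran from 16.7 to 21.5 FPKM.

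*Bnip3* and *Bnip3l* encode mitophagy receptors of the outer mitochondrial membrane. *Bnip3l* (mm10 chromosome 14, 66985240 to 67008877) measured 63.9, 59.7 and 68.2 FPKM in WT, 62.04, 62.9 and 63.3 in HET and 64.5, 78.1 and 65.3 in MUT (libraries 1 to 3 of each). HET varied by 0.644 FPKM (s.d.) and every MUT library lay above it, but MUT-2 alone stood clear, and MUT overlapped WT. The log2 difference from HET was 0.14±0.12 (standard error) and 0.05 without MUT-2. *Bnip3* measured 27.5, 26.5 and 28.9 FPKM in WT, 25.6, 27.1 and 22.3 in HET and 24.1, 32.98 and 27.4 in MUT, with MUT-2 again the highest, and differed by 0.16±0.13, or 0.04 without MUT-2.

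*Ddit4*, the stress-induced inhibitor of mTORC1 known as Redd1, measured 24.8, 27.2 and 27.1 FPKM in WT, 27.6, 30.1 and 30.1 in HET and 27.9, 30.2 and 32.1 in MUT (libraries 1 to 3 of each). Both genotypes with the Cre lay above all WT libraries, HET and MUT overlapped, and the difference from WT was 0.14±0.10 for HET and 0.18±0.12 for MUT (log2 difference and standard error, adjusted p = 0.998 and 0.9998, limma), with an exact two-sided permutation p of 0.1 for each. After correction for GC content and length these differences were 0.0045 and 0.098. *Vldlr*, a lipoprotein receptor, was 14.1±1.55 FPKM in WT, 11.99±1.26 in HET and 13.2±0.411 in MUT. *Ndrg1*, a marker of hypoxic and differentiating cells, had the third widest spread of the group, from 12.02 to 21.5 FPKM (HET-3 to HET-2), and its difference of MUT from HET was -0.06±0.20. *Ankrd37* ran from 5.86 to 8.79 FPKM and differed by -0.06±0.14. *Adm*, the vasodilator peptide adrenomedullin, stayed at 2.003 to 3.23 FPKM and was not tested, with all genotypes overlapping.

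**Figure D4:**
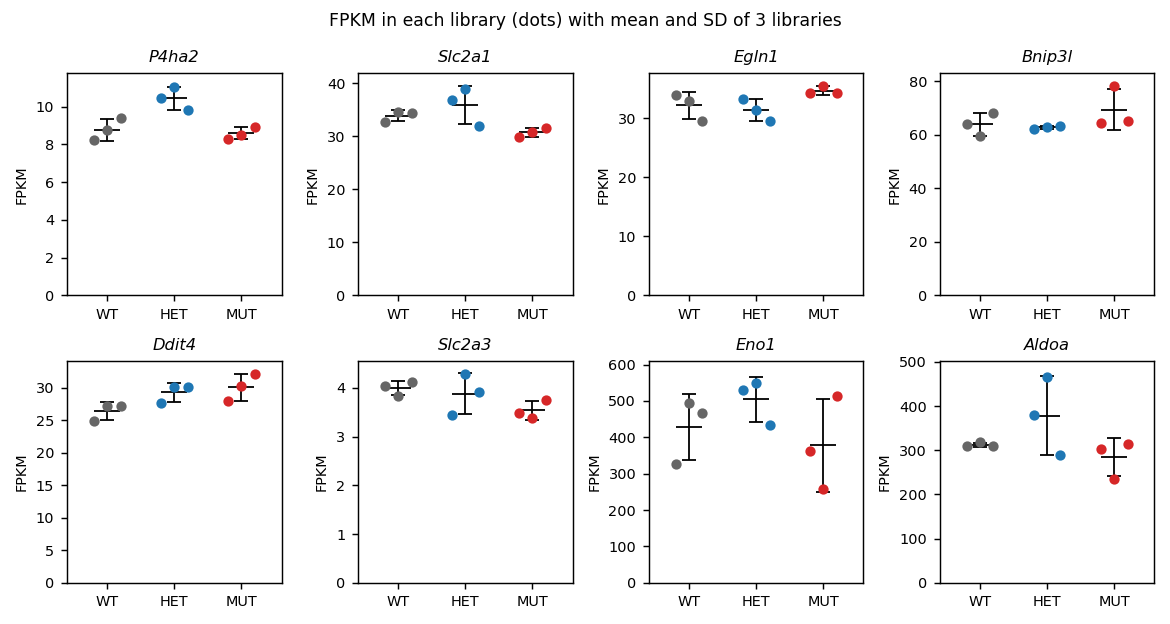
FPKM (y axis from 0) of 8 genes in each library of WT (grey), HET (blue) and MUT (red), with the mean and s.d. of 3 libraries in black. MUT lies below HET without overlap for *P4ha2* and *Slc2a1* and above it for *Egln1* and *Bnip3l*, MUT lies apart from WT for *Slc2a1*, *Slc2a3*, *Egln1* and *Ddit4*, and *Eno1* and *Aldoa* overlap in all genotypes.

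Taking each comparison across the 34 genes tested against WT, none had an adjusted p under 0.05 and none an unadjusted limma p under 0.05, in MUT against WT (0% of 10096 loci after adjustment, and 0.307% higher and 0.337% lower before it) or in HET against WT (0% of 10105 loci, and 0.544% higher and 0.524% lower). Other settings let some genes of the group past the unadjusted threshold. In MUT against WT there was 1 with correction for GC content and length (141 of 9755 loci). In HET against WT there were 3 without HET-3 (625 of 10131) and 2 with that correction (244 of 9767). Quantile rescaling (117 of 10105), a single fit of all 9 libraries (84) and the replicate block (233) each gave 1. So did leaving out WT-2 (395 of 10148) or WT-3 (257 of 10102). In HET against WT, *P4ha2* and *Ddit4* lay above every WT library and no tested gene lay below, where 2.15% and 1.06% of all loci did so. In MUT against WT, *Egln1* and *Ddit4* lay above and *Slc2a1* below, where 1.32% and 1.34% of all loci did so. The log2 differences ran from -0.22 (*Ldhb*) to 0.18 (*Ddit4*) in MUT against WT and from -0.22 (*Vldlr*) to 0.25 (*Aldoa*) in HET against WT. The 95% intervals reached 0.24 to 0.57 and 0.23 to 0.39 to each side.

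**Figure D5:**
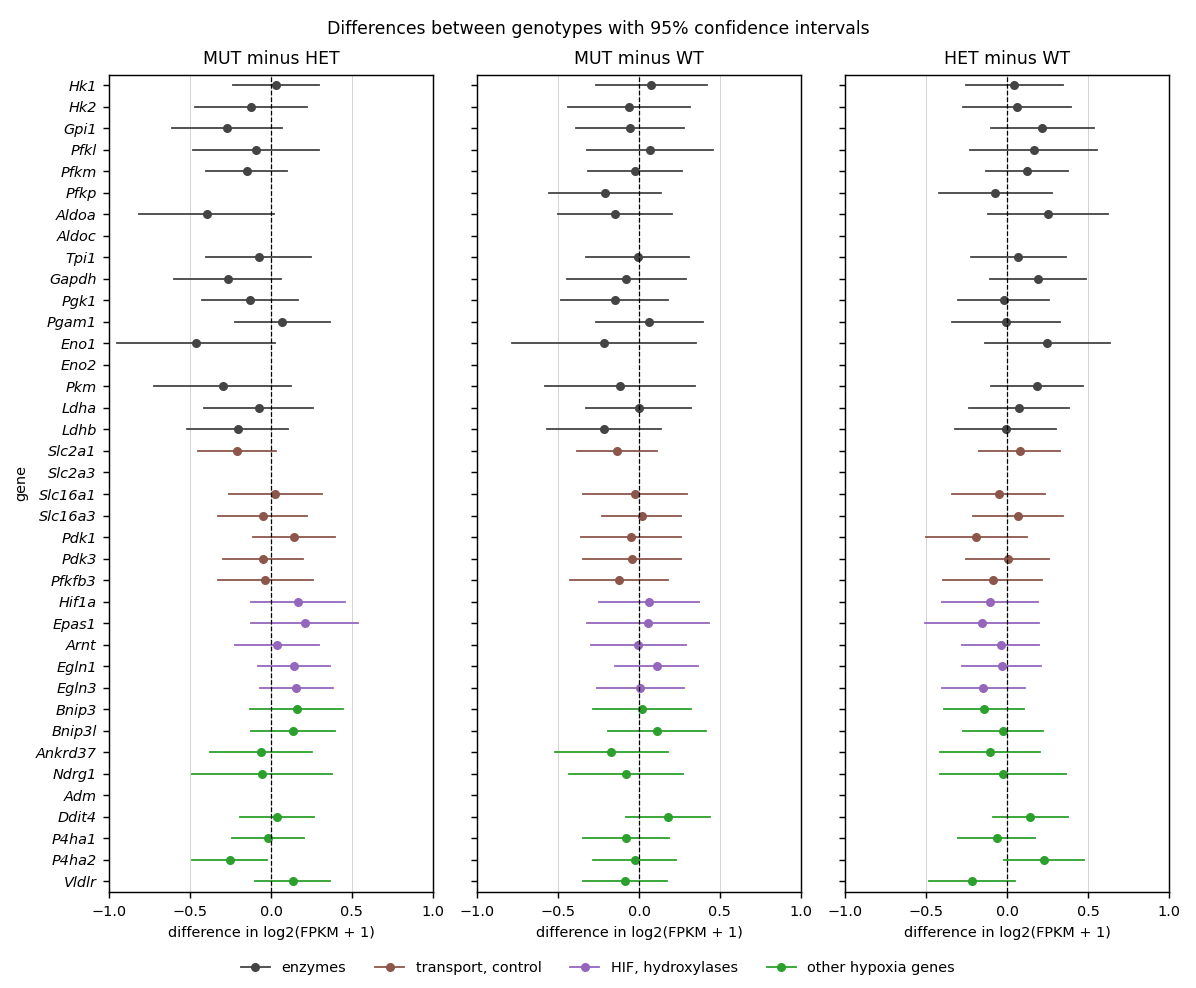
Difference in log2(FPKM + 1) between genotypes (x axis, dot) with its 95% confidence interval (line) for each tested gene (rows, coloured by role), for MUT minus HET, MUT minus WT and HET minus WT. All intervals include 0 except that of *P4ha2* in MUT minus HET (-0.49 to -0.02), and the widest belong to *Eno1* in both comparisons of MUT and to *Pfkl* in HET minus WT.

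The rest of the pathways was followed in 3 lists of other genes. Of 18 tested genes of glycolysis, gluconeogenesis and pyruvate use that are outside the group, 14 had a lower mean in MUT than in HET, with a median log2 difference of -0.04, led by *G6pc3* (-0.27, a glucose 6-phosphatase), *Pfkfb2* (-0.24) and the muscle enolase *Eno3* (-0.23), and with *Dlat* (0.19, a subunit of pyruvate dehydrogenase), *Pdk2* (0.04) and *Pcx* (0.02) on the other side. *Eno3* measured 13.82, 13.93 and 15.73 FPKM in HET and 12.2, 9.065 and 16.36 in MUT (libraries 1 to 3 of each). HET-3, the library with muscle transcripts, was its highest HET library, and MUT-3 was the highest of all 9. The part of muscle transcripts in *Eno3* was not tested. Of 7 genes of the pentose phosphate pathway, which branches off glucose 6-phosphate to make NADPH, 5 had the lower mean, with a median of -0.20, as in *G6pdx* (-0.30±0.14, standard error), *Taldo1* (-0.28±0.14) and *Pgd* (-0.23±0.13), and *Rpe* (0.14) and *Rpia* (0.02) had the higher. *Taldo1* and *Pgd* were lower in MUT-1 and MUT-2 than in any HET library, and MUT-3 lay inside the range of HET. Of 31 tested hypoxia-responsive genes outside the group, 14 had the higher and 17 the lower mean, with a median of -0.02. *Mif*, a cytokine gene that HIF is known to induce, measured 574, 843 and 752 FPKM in WT, 1001, 970.0 and 742 in HET and 626, 525 and 783 in MUT (log2 difference -0.49±0.18, standard error, adjusted p = 0.738, limma), and MUT-3 lay above HET-3. *Wsb1* (-0.43) and the heme oxygenase *Hmox1* (-0.32) followed on the lower side, and the collagen cross-linking *Lox* (0.37), *Hif3a* (0.18) and the asparagine hydroxylase *Hif1an* (0.15) on the higher. No gene of the 3 lists passed the adjusted test in any of the 3 comparisons.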

How the data were processed

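RNA of whole E15.5 kidneys was sequenced by the authors from stranded mRNA libraries, aligned with STAR, assembled with Cufflinks and Cuffmerge and quantified with Cuffdiff. The submitters' processing notes name mm10, and versions and annotation are not given in the sources used here. The deposited table holds FPKM of 24138 loci in 9 libraries, scaled by the authors to transcript length and library size, with no read counts. Depth is therefore unknown, no counting interval is given, and precision is that of 3 kidneys per genotype. Columns of group means were not used.

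The 38 genes and all lists were chosen with earlier results of these data known. For each comparison of 2 genotypes, loci that reached 5 FPKM on average in at least 1 of the 2 entered a limma fit (version 3.58.1, R 4.3.3) of log2(FPKM + 1), by lmFit and eBayes with a trend, on those 6 libraries and without a block, two-sided, with Benjamini-Hochberg adjustment over all loci tested and a threshold of 0.05. This scale understates differences of low genes. Single values and shares were compared by exact two-sided permutation tests, which cannot give p under 0.1. Of the genes outside the group, up to 3 per list and direction with the largest difference of MUT from HET are named. The steps were tested on simulated data.

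Locus starts in the table count from 0 and are given here from 1. The 38 loci each overlap the gene of that symbol in GENCODE mouse release 21, and 7 of them also overlap another protein-coding gene. Alternatives were pseudocounts of 0.1 and 3, FPKM minimums of 1, 10 and none, quantile and median-ratio rescaling, a single fit of all 9 libraries, the replicate number as a block, no trend, a GC correction and each library left out. Correction for GC content and length together, and leaving out HET-2 and MUT-2 together, were chosen after the data were seen. Promoters were read from RefSeq windows. Python 3.11.15 was used for tables and figures, with pandas 2.3.3 and matplotlib 3.10.9.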

Additional observations from a re-analysis of the deposited data

How the results depend on the processing

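With 3 kidneys per genotype and unknown depth, differences inside the intervals given were not detectable, and the adjusted test can also miss larger ones. No gene of the group had an adjusted p under 0.05 in any comparison under any of the alternatives run. Over all loci 0 genes passed in each comparison, and with 1 library left out 0 to 3 did in each of the 3. With HET-2 and MUT-2 left out together, 5 loci passed between MUT and HET, none of them in the group. With the median log2 difference of the 13 tested hypoxia genes between MUT and HET at 0.13, a minimum of 1 FPKM or none, which lets in all 14, gave 0.085, leaving out HET-2 and MUT-2 gave 0.052, and leaving out 1 library gave 0.049 (without MUT-2) to 0.15. *Vldlr*, 0.13 between MUT and HET, was -0.0065 after correction for GC content and length, and the cause was not tested. In HET against WT the same correction took *Vldlr* from -0.22 to -0.07 and *Ddit4* from 0.14 to 0.0045. The median of the 14 tested enzymes between MUT and HET ran from -0.23 (without MUT-3) to -0.02 (without HET-2 and MUT-2).

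With the replicate number as a block (replicate block), 0 loci passed in each comparison, and 494, 201 and 233 had an unadjusted limma p under 0.05 in MUT against HET, MUT against WT and HET against WT. In no comparison did every same-numbered pair correlate above 0.1, so the numbers were not taken to pair the libraries. Whether the numbers stand for the 3 crosses is not given in the sources used here. With 3 pairs per comparison these correlations cannot decide it, and differences between crosses may remain in the spread. Same-numbered MUT and HET libraries correlated at -0.13 on average in their deviations from the group means (-0.32 to 0.057), and 0 of 3 were closest to their own number. The mean was 0.087 for MUT and WT (-0.26 to 0.56) and -0.024 for HET and WT (-0.19 to 0.17), with 1 of 3 closest to its own number in each.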
